A study of Mus musculus with 6 samples.

Results

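Sprouty proteins (Spry1, Spry2, Spry4), Spred proteins (Spred1, Spred2), PEA3-type ETS factors (Etv1, Etv4, Etv5) and the ERK phosphatases Dusp4 and Dusp6 were followed in embryonic submandibular glands (eSMGs) treated with AMD3100. These 10 genes were taken by symbol from the count files as known transcriptional readouts and feedback inhibitors of FGF and ERK signaling. This rule used none of their values, although it was set with earlier results of these data known. They are 10 of 23260 gene lines, and all 10 passed the filter on low counts that left 13610 genes for testing. The 6 libraries came from E14 eSMGs of ICR mice, with epithelium and mesenchyme together and up to 10 glands pooled per tube, and 3 tubes were control and 3 received 50 µM AMD3100, a small-molecule antagonist of the chemokine receptor CXCR4. All tubes were collected after 6 h of ex vivo culture, and RNA was read with a QuantSeq 3′ mRNA kit as 50 bp single reads, which fall near the 3′ end of each transcript. The libraries held between 9051595 and 14393031 counts. The perturbation is pharmacological, no library comes from glands that lack the receptor, and the p-values measure the spread between these tubes. The study's methods speak of independent triplicates in general, without saying whether the tubes of a group came from separate litters.

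FGF ligands bind receptor tyrosine kinases and start the RAS-RAF-MEK-ERK cascade, and active ERK switches on genes that act back on the same cascade. Etv1, Etv4 and Etv5 encode transcription factors that are induced by FGF signaling and carry part of its output, Sprouty and Spred proteins act on the cascade at and above RAF, and DUSP6 in the cytoplasm and DUSP4 in the nucleus remove phosphate from ERK. In the developing salivary gland FGF10 from the mesenchyme signals to FGFR2 on the epithelium and drives bud growth and branching, and these genes are commonly read as a record of that signal.

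After 6 h of AMD3100, Dusp6 was lower and Etv1 higher in every treated library than in every control library, and the groups overlapped for the other 8 genes. These 2 of 10 compare with 7.44% of all genes tested whose groups did not overlap, and neither gene passed a p adjusted over all genes. Spry4 was lower in each treated library than in the control library of the same number, with control libraries far apart from each other. To show where these genes begin, the 250 bases upstream of the start site are given 5′ to 3′ from the RefSeq annotation of GRCm38.p6, the assembly behind mm10, which the submitters' processing notes name. The Dusp6 stretch is chr10:99262981-99263230 on the plus strand, and the Etv1 stretch, upstream of its outermost start site, is chr12:38779832-38780081 on the plus strand. Capitals mark the letters AGGAAG on either strand (CTTCCT when read on the strand shown), a string that PEA3-type ETS factors are known to bind.
Dusp6: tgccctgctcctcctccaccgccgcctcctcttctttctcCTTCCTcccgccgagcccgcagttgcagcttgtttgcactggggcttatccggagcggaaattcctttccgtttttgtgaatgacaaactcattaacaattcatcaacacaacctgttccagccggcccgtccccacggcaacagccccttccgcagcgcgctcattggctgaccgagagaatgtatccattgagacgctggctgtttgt
Etv1: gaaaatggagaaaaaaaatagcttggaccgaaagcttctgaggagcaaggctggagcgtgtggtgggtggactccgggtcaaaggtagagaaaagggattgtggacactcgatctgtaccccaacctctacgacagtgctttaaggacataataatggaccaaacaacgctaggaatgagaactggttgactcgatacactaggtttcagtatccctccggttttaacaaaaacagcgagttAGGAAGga

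The capital letters began 210 bases before the Dusp6 start site and 8 bases before the Etv1 start site. Of the 10 genes, 7 were matched in the promoter table, with 9 start sites, and AGGAAG stood within 250 bases upstream of 3 of the 9, those shown and that of Spred2. Of all 32851 start sites, 29.5% held AGGAAG in the same length. The longer string CCGGAAG, searched on both strands, was in 0 of the 9 and in 6.91% of all start sites. These matches describe letters only and were not tested as binding sites.

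The tissue label was checked against marker genes. All 15 epithelial and all 12 mesenchymal markers listed were detected in every library, and Krt15, a keratin of the progenitor epithelium, and Col3a1, a fibrillar collagen of mesenchyme, were the most abundant of each list. The libraries numbered 3, from both groups, stood apart from the other 4 on the first principal component, at 84.8 for control and 80.8 for AMD3100 against -78.7 to -17.4, and this component held 38.2% of the variance. The summed expression of 8 skeletal muscle markers was 1640 and 2190 CPM (counts per 1000000 after TMM scaling, which adjusts library totals for composition) in the control and AMD3100 libraries numbered 3 and between 154 and 288 CPM in the other 4. The 12 mesenchymal markers summed to 2340 and 1990 CPM in the libraries numbered 3 and to between 4560 and 4630 CPM in the others. The collagens Col1a1, Col1a2 and Col3a1 weighed most in this sum, and Col3a1 stood at 406 and 415 CPM there against 1390 to 1420 CPM. Pdgfra, Vim and Dcn were also lowest there in each group. The other markers were not lowest there in both groups, and Lum was highest there in each, at 62.1 and 64.1 CPM. Of the 8 muscle markers, 7 were detected in every library. Myog, a transcription factor of muscle differentiation, was the most abundant over all libraries together through the libraries numbered 3, at 521 and 485 CPM. In the other 4 it lay between 9.95 and 41.1 CPM, below Actc1, a muscle actin, at 66.7 to 130 CPM. The feedback genes were therefore also fitted without both of these libraries. Because each tube holds whole glands, fewer cells of a type and less RNA per cell cannot be told apart.

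AMD3100-treated and control eSMGs were compared across all genes with edgeR's quasi-likelihood test and Benjamini-Hochberg adjustment, and a positive log2 fold change means a higher level with AMD3100. No gene passed an adjusted p of 0.05 (0.00% of the 13610 genes tested), whereas DESeq2 called 5 genes and edgeR with the replicate number as a block called 3 (0.0220%), none of them among the 10. Without adjustment, 228 genes had p under 0.05 and a fold change over 1.5, which is 1.68% of those tested, and Dusp6, on the lower side, was the 1 of the 10 among them. By direction these were 1.28% of the genes tested on the lower and 0.397% on the higher side. With the replicate block 598 genes did, 4.39% of those tested and 2.90% on the lower side. Dusp6 and Spry4 were the 2 of the 10 among them, both lower in AMD3100-treated eSMGs. The pairing by number rests mainly on the libraries numbered 3, since those numbered 1 and 2 correlated across numbers about as much as within them. In sign alone, 6 of the 10 had a higher and 4 a lower fitted level in AMD3100-treated eSMGs, with a median log2 fold change of 0.08, against a median of 0.02 over all genes tested. The 10 genes thus lay on both sides of control. Without both libraries numbered 3, 5 of the 10 were higher and 5 lower, with a median of 0.11.

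**Figure D1:**
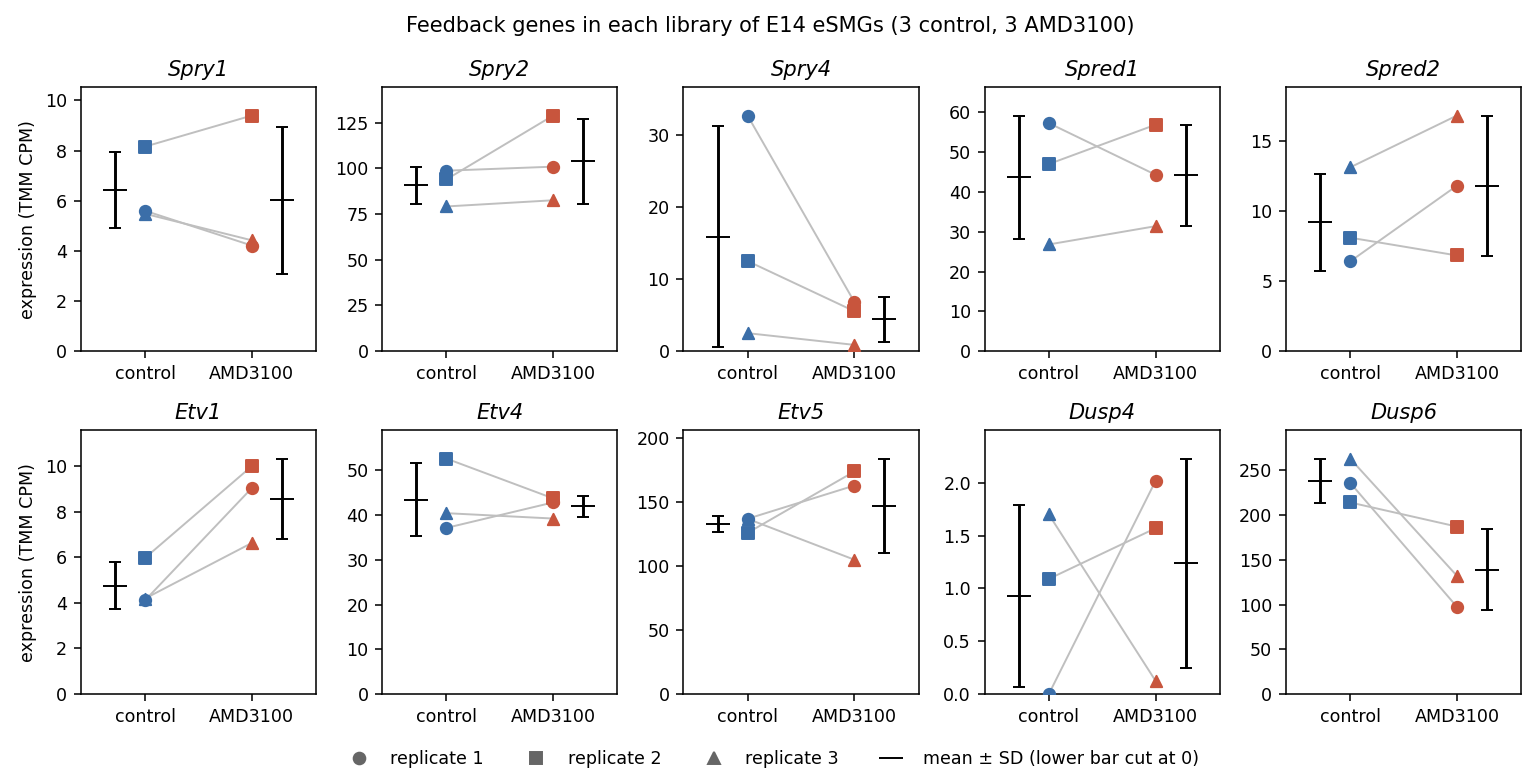
Expression of each feedback gene in each library, on linear axes from 0 in TMM-scaled CPM, with control libraries in blue and AMD3100 libraries in red, marker shape for the replicate number, gray lines joining the same number, and bars for mean ± SD of the 3 libraries. Dusp6 lies between 214 and 263 CPM in control and between 97.4 and 187 CPM in AMD3100-treated eSMGs, Etv1 separates the other way, and the other 8 genes overlap.

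Dusp6, the cytoplasmic phosphatase of ERK, was the feedback gene with the most counts in control eSMGs. It had 2697, 2944 and 2639 counts in control replicates 1, 2 and 3, and 1691, 2024 and 1078 counts in AMD3100 replicates 1, 2 and 3. After scaling this was 236, 214 and 263 CPM in control and 97.4, 187 and 132 CPM in AMD3100-treated eSMGs. Each treated library lay below each control library, and replicate 1 was the lowest of the treated libraries. Control libraries averaged 238 ± 24.4 CPM and treated libraries 139 ± 44.9 CPM (SD, n = 3 each), a ratio of 0.583. All genes together showed such a separation with the treated libraries lower in 4.17% of those tested, and in either direction in 7.44%. The log2 fold change was -0.78 ± 0.32 (SE) with a 95% interval of -1.5 to -0.06, with an unadjusted p of 0.0376 and an adjusted p of 1.0 in edgeR. The exact two-sided permutation test gave p = 0.1, the smallest that 3 against 3 libraries allow.

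Within libraries that share a number, the log2 ratios of Dusp6 were -1.28, -0.2 and -0.99 for replicates 1, 2 and 3, all below 0 as they must be where groups do not overlap. With the replicate block, the log2 fold change was -0.82 ± 0.2 (SE) with a 95% interval of -1.27 to -0.38, an unadjusted p of 0.00239 and an adjusted p of 0.386 in edgeR, where the alternatives ranged from 0.386 to 1.0. Without both libraries numbered 3 it was -0.68, with an unadjusted p of 0.0165 and an adjusted p of 0.776 in edgeR. The unadjusted p passed 0.05 when AMD3100 replicate 2 was left out, at 0.0213, and missed it when any of the other 5 libraries was, at 0.062 to 0.15, the latter without AMD3100 replicate 1, with log2 fold changes between -1.04 and -0.58. Counting error alone would give a spread of about 1.9% per control library, below the observed coefficient of variation of 10.3%. In RefSeq, Dusp6 spans chr10:99263231-99267489 and is overlapped by Gm34921, a long noncoding RNA gene. Whether counting used strand is not stated, so reads of the pair may not have been separated.

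Dusp4, the nuclear ERK phosphatase (chr8:34807610-34819894), was close to the floor of detection. It had 0, 15 and 17 counts in control and 35, 17 and 1 counts in AMD3100-treated eSMGs. The 0 among 11532946 counts in control replicate 1 allows a level of up to 0.263 CPM, taking 3 counts as the limit, for counting error only. The groups overlapped, and a log2 fold change of 0.42 with a 95% interval of -3.35 to 4.19 leaves either direction within reach. The log2 fold change was 1.68 ± 2.47 (SE) without both libraries numbered 3. No difference in Dusp4 was detectable at this depth.

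The sprouty genes encode membrane-associated proteins that dampen signaling from FGF receptors to RAS and RAF. Spry2 (chr14:105891947-105896819) held most of their counts. It stood at 98.8, 94.0 and 79.2 CPM in control and at 101, 129 and 82.6 CPM in AMD3100-treated eSMGs. The groups overlapped, although the treated library was the higher in 3 of 3 pairs, as for 15.7% of all genes tested. The log2 fold change was 0.2 with a 95% interval of -0.46 to 0.85 and an unadjusted p of 0.509 in edgeR, so levels between 0.729 and 1.81 times control lie within the interval. It was 0.24 without both libraries numbered 3, with an unadjusted p of 0.222.

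Spry4 showed the lowest fold change of the 10 genes and the highest coefficient of variation among control libraries. It had 374, 172 and 25 counts in control replicates 1, 2 and 3 and 118, 60 and 7 counts in AMD3100 replicates 1, 2 and 3. In CPM this was 32.7, 12.5 and 2.49 in control and 6.8, 5.53 and 0.86 in AMD3100-treated eSMGs. Control replicate 3 lay below AMD3100 replicates 1 and 2, so the groups overlapped, but within each number the treated library was the lower, by log2 ratios of -2.27, -1.18 and -1.54, and 14.6% of all genes tested were lower in all pairs. Control libraries averaged 15.9 ± 15.4 CPM and treated libraries 4.4 ± 3.13 CPM (SD, n = 3 each). The control coefficient of variation of 96.8% compares with 7.25% from counting alone. The log2 fold change was -1.84 ± 0.94 (SE) with a 95% interval of -3.98 to 0.3, an unadjusted p of 0.0838 and an adjusted p of 1.0 in edgeR. The exact two-sided permutation test over the 6 libraries gave p = 0.4.

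With the replicate block the log2 fold change of Spry4 was -1.68 ± 0.44 (SE) with a 95% interval of -2.68 to -0.68, an unadjusted p of 0.00411 and an adjusted p of 0.457 in edgeR, where the alternatives ranged from 0.457 to 1.0. Without both libraries numbered 3, the log2 fold change was -1.88 with an unadjusted p of 0.00557 and an adjusted p of 0.746 in edgeR. In that fit 613 of 13948 genes tested had an unadjusted p under 0.05 with a fold over 1.5. Control replicate 1 carried much of the size, since without it the log2 fold change was -0.77 with an unadjusted p of 0.461. The highest muscle marker sums and the lowest Spry4 levels of each group were in the libraries numbered 3, and the part of muscle tissue in these values was not tested.

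Spry1 (chr3:37639947-37644599) was low in all libraries, between 5.48 and 8.16 CPM in control and between 4.21 and 9.4 CPM in AMD3100-treated eSMGs. Its log2 fold change was -0.1 with a 95% interval of -1.39 to 1.2, its value without both libraries numbered 3 was -0.03, and its sign depended on which single library was left out. Together the 3 sprouty genes summed to 137, 115 and 87.2 CPM in control and to 112, 144 and 87.9 CPM in AMD3100-treated eSMGs, with means of 113 ± 25 and 114 ± 28 CPM (SD, n = 3 each). The sum therefore differed by less than the spread between replicates, while its make-up varied. Spry4 gave 23.9%, 10.9% and 2.86% of the sprouty counts in control replicates 1, 2 and 3, and 6.09%, 3.85% and 0.978% in the AMD3100 replicates. The 95% Wilson interval was 21.8 to 26.1% in control replicate 1 and 5.11 to 7.24% in AMD3100 replicate 1, and such intervals cover counting error only.

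Spred1 (chr2:117121071-117182279) and Spred2 (chr11:19924442-20024026) encode relatives of sprouty that restrain RAS activation together with neurofibromin. Spred1 stood at 57.3, 47.0 and 26.8 CPM in control and at 44.3, 56.9 and 31.4 CPM in AMD3100-treated eSMGs. The libraries numbered 3 were the lowest of both groups, and the means of 43.7 ± 15.5 and 44.2 ± 12.7 CPM (SD, n = 3 each) differed by less than the spread. Spred2 stood at 6.39, 8.09 and 13.1 CPM in control and at 11.8, 6.82 and 16.8 CPM in AMD3100-treated eSMGs, with the libraries numbered 3 the highest of both groups. The log2 fold change was 0.02 (95% interval -0.83 to 0.86) for Spred1 and 0.36 (95% interval -0.76 to 1.48) for Spred2, and both pairs of groups overlapped. These values were -0.05 and 0.36 without both libraries numbered 3.

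The PEA3-type ETS genes read FGF signaling in the epithelium. Etv1 (chr12:38780082-38870483) was the 1 of the 10 with all treated libraries above all control libraries. It had 47, 82 and 42 counts in control and 157, 109 and 54 counts in AMD3100-treated eSMGs. In CPM this was 4.11, 5.97 and 4.19 in control and 9.04, 10 and 6.63 in AMD3100-treated eSMGs. The nearest libraries across the groups were control replicate 2 and AMD3100 replicate 3. Among all genes tested, 3.28% separated in this direction. Control libraries averaged 4.76 ± 1.05 CPM and treated libraries 8.57 ± 1.76 CPM (SD, n = 3 each), and the log2 ratios within numbers were 1.14, 0.75 and 0.66. The log2 fold change was 0.85 ± 0.5 (SE) with a 95% interval of -0.29 to 1.99, an unadjusted p of 0.127 and an adjusted p of 1.0 in edgeR. The exact two-sided permutation test gave p = 0.1, its smallest possible value. Over 14 alternatives the log2 fold change lay between 0.72 and 1.04 and the unadjusted p between 0.1 and 0.25, with 0.91 and 0.207 when both libraries numbered 3 were left out.

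Etv5 (chr16:22381313-22439570), which held most of the counts of this family, stood at 137, 126 and 137 CPM in control and at 163, 174 and 105 CPM in AMD3100-treated eSMGs. The control libraries were close together, at 133 ± 6.44 CPM (SD, n = 3), and the treated libraries, at 147 ± 37.1 CPM (SD, n = 3), lay on both sides of them. Its log2 fold change was 0.15 with a 95% interval of -0.52 to 0.82 and an unadjusted p of 0.628 in edgeR. Without both libraries numbered 3, it was 0.36 with an unadjusted p of 0.0447 and an adjusted p of 0.846 in edgeR, the lowest over the alternatives, which reached 1.0. Etv4 (chr11:101769747-101785310) stood at 37.1, 52.6 and 40.4 CPM in control and at 42.8, 43.7 and 39.2 CPM in AMD3100-treated eSMGs, and all treated libraries lay within the range of the control libraries. Its log2 fold change was -0.05 with a 95% interval of -0.69 to 0.59, and -0.06 without both libraries numbered 3. Summed, the 3 ETS genes stood at 181 ± 3.03 CPM in control and 198 ± 41.3 CPM in AMD3100-treated eSMGs (SD, n = 3 each). Etv1 gave 2.31%, 3.24% and 2.31% of their counts in control and 4.20%, 4.42% and 4.40% in AMD3100-treated eSMGs.

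**Figure D2:**
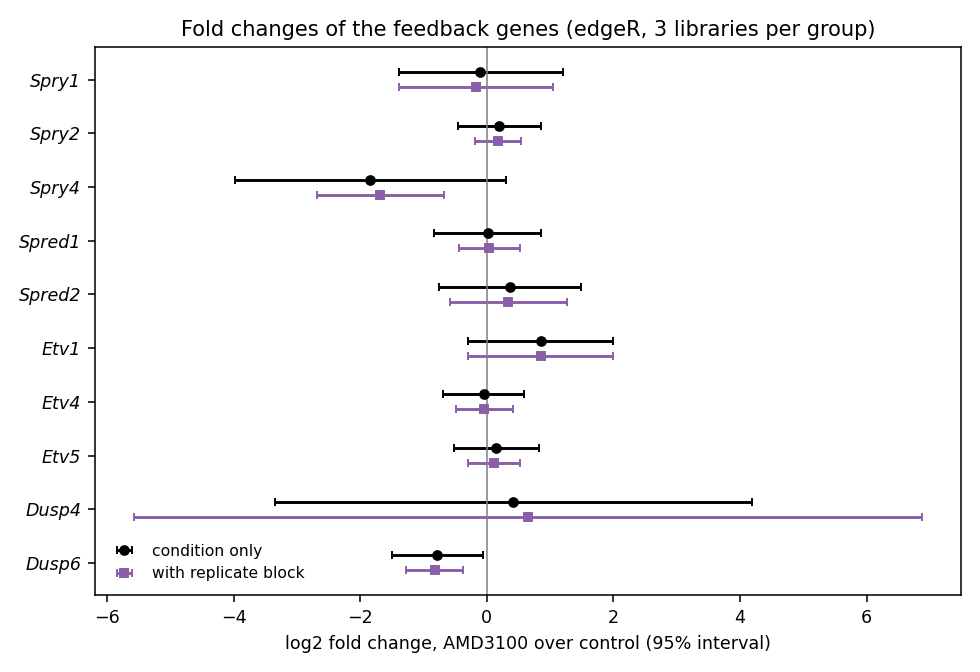
Log2 fold changes (AMD3100 over control) of the 10 genes on the x axis, with 95% intervals from edgeR, in black with condition as the only term and in purple with the replicate block. The interval of Dusp6 lies below 0 in both fits, that of Spry4 (-2.68 to -0.68) only with the block, and those of the other 8 genes include 0 in both.

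The balance among the 10 genes was also compared. Reads from a 3′ kit do not scale with transcript length, so shares of counts are given and no level per length. Dusp6 took 38.4%, 37.7% and 45.9% of the counts of the 10 genes in control replicates 1, 2 and 3 and 20.2%, 29.9% and 31.6% in the AMD3100 replicates. The lowest control library (95% Wilson interval 36.6 to 38.7%) and the highest treated library (30.0 to 33.1%) did not meet. These intervals cover counting error only and not the spread between tubes. Spry2 took 16.1%, 16.5% and 13.8% in control and 20.9%, 20.7% and 19.7% in AMD3100-treated eSMGs. Since the shares of a library add up to the whole, a lower share of Dusp6 raises the other shares, and the 2 shares are not separate observations. The 10 genes summed to 586 ± 25.3 CPM in control and 508 ± 104 CPM in AMD3100-treated eSMGs (SD, n = 3 each), at 615, 569 and 573 CPM and at 482, 623 and 419 CPM, so these groups overlapped.

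**Figure D3:**
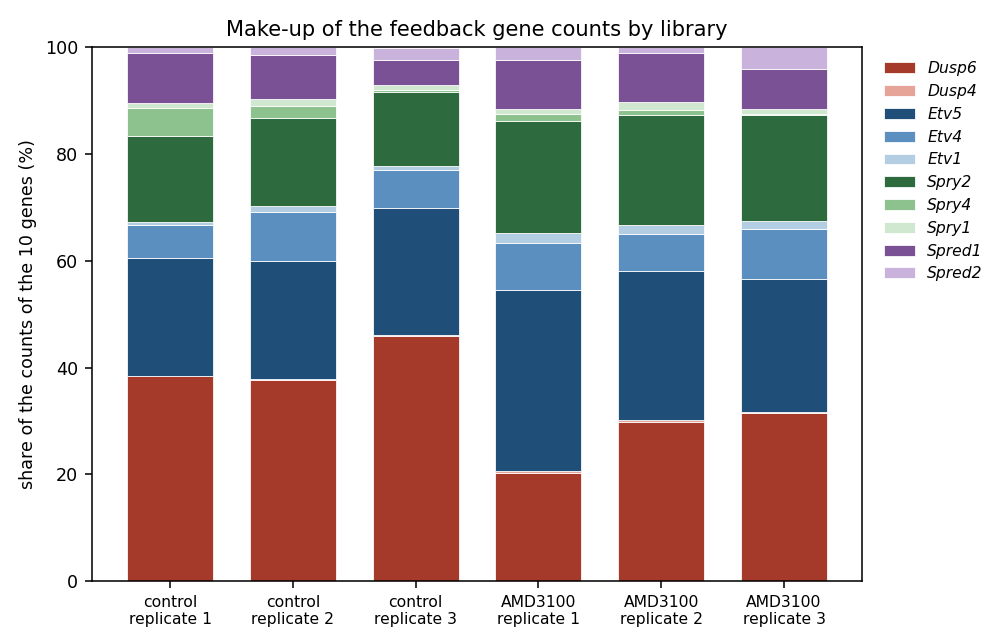
Share of each gene, in percent on the y axis from 0, in the summed counts of the 10 feedback genes for each of the 6 libraries, stacked by gene. The Dusp6 share spans 37.7 to 45.9% in control libraries and 20.2 to 31.6% in AMD3100 libraries, and Etv5 and Spry2 make up most of the rest.

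Other genes that restrain or modulate the cascade, among them Flrt2 and Flrt3, were read from a list of 23 genes, of which 21 were tested. In AMD3100-treated eSMGs 13 of the 21 had a lower and 8 a higher fitted level, with a median log2 fold change of -0.21 against 0.02 over all genes. Dusp7, a further cytoplasmic phosphatase of ERK, was the 1 of the 21 past an unadjusted p of 0.05 and a fold of 1.5 (1.68% of all genes were). It stood at 48.2, 27.4 and 26.6 CPM in control and at 21.2, 20.0 and 14.7 CPM in AMD3100-treated eSMGs, and the groups did not overlap. Its log2 fold change was -0.87 ± 0.36 (SE) with an unadjusted p of 0.04 and an adjusted p of 1.0 in edgeR, and it lay between -1.01 and -0.54 over 14 alternatives, of which 9 kept the unadjusted p under 0.05. Errfi1, an inhibitor of the EGF receptor, stood at 11.9 ± 4.22 CPM in control and 7.25 ± 2.18 CPM in AMD3100-treated eSMGs, with a log2 fold change of -0.72 and an unadjusted p of 0.168. Dusp10, a phosphatase of JNK and p38 named here after its values were seen, was the other gene of the list whose groups did not overlap, also lower, with an unadjusted p of 0.294. Groups did not overlap for 7.44% of all genes tested, and for 4.17% the treated libraries were the lower.

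The remaining relatives of the 10 genes gave no separation of the groups. Il17rd, a membrane inhibitor of FGF receptors, differed from control by a log2 fold change of -0.15 ± 0.37 (SE), and its sign turned when a library was left out. The nuclear phosphatase Dusp1 differed from control by a log2 fold change of -0.36 ± 0.39 (SE). Spred3 ranged from 0 to 4.69 CPM in control and from 2.67 to 7.37 CPM in AMD3100-treated eSMGs. Spry3 had 0 counts in all 6 libraries, which allows between 0.173 and 0.368 CPM per library at 3 counts, and Dusp5 had 2 counts in control replicate 3 and 0 in the others. Both were therefore below or near the floor at this depth.

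Among 20 other ERK-responsive genes, 16 were tested, 6 with a higher and 10 with a lower fitted level and a median log2 fold change of -0.14. With all 6 libraries and no block, none passed an unadjusted p of 0.05 with a fold over 1.5. With the replicate block Egr1 and Ier2, both immediate early genes, were lower past this rule, beside 4.39% of all genes tested. Their unadjusted p were 0.0495 and 0.0274 in edgeR. Their adjusted p were 0.746 and 0.703, the lowest over their alternatives, which reached 1.0. Without AMD3100 replicate 3 and without the block, their log2 fold changes were -1.46 and -1.38. The unadjusted p were then 0.0314 and 0.0296 in edgeR, and 451 of 14260 genes tested passed the same rule. Ier2 stood at 15.5, 14.9 and 26.3 CPM in control and at 9.91, 4.7 and 18.2 CPM in AMD3100-treated eSMGs, lower in 3 of 3 pairs with overlapping groups. Its log2 fold change lay between -1.38 and -0.42 when a library was left out. Egr1 stood at 25.8, 12.5 and 46.6 CPM and at 12.6, 8.2 and 40.8 CPM, again lower within each number, although its fitted sign turned without control replicate 3, while the libraries numbered 3 were the highest of both groups. Ccnd1, which encodes the cell cycle regulator cyclin D1, stood at 295 ± 56.8 CPM in control and 229 ± 90.6 CPM in AMD3100-treated eSMGs (SD, n = 3 each), with a log2 fold change of -0.37 and an unadjusted p of 0.334. It was lower in 3 of 3 pairs, and with the replicate block its log2 fold change was -0.43 with an unadjusted p of 0.0254, below a fold of 1.5, and an adjusted p of 0.703 in edgeR, the lowest over its alternatives, which reached 1.0. Junb, an AP-1 subunit, differed from control by a log2 fold change of -0.53 ± 0.41 (SE) and Phlda1 of -0.16 ± 0.38 (SE). Fos and Myc were low, at 1.5 ± 1.37 and 1.35 ± 1.31 CPM in control and 3.33 ± 2.2 and 2.42 ± 1.63 CPM in AMD3100-treated eSMGs (SD, n = 3 each).

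The upstream genes of the same pathway were read for context. Of 24 FGF ligands, receptors and adaptors, 18 were tested, 11 with a higher and 7 with a lower fitted level and a median log2 fold change of 0.04, and none passed an unadjusted p of 0.05 with a fold over 1.5. Fgf10, the mesenchymal ligand of branching, stood at 111, 79.2 and 52.5 CPM in control and at 88.2, 91.0 and 44.8 CPM in AMD3100-treated eSMGs, with overlapping groups. Its receptor Fgfr2 stood at 25.8, 25.1 and 9.87 CPM and at 22.0, 21.8 and 12.8 CPM, also overlapping. For both, the libraries numbered 3 were the lowest of each group and the sign of the difference turned when a library was left out. Fgf7, a second ligand of this receptor, and Fgfr1 had log2 fold changes of 0.42 ± 0.46 (SE) and -0.2 ± 0.28 (SE). Fgf1 was the 1 gene of the list whose groups did not overlap, beside 7.44% of all genes tested and 3.28% on the higher side. It stood at 2.45, 4.01 and 2.69 CPM in control and at 12.7, 5.35 and 4.3 CPM in AMD3100-treated eSMGs. Its log2 fold change was 1.29 ± 0.66 (SE) with an unadjusted p of 0.085 in edgeR. AMD3100 replicate 1 carried much of this, as the log2 fold change of Fgf1 was 0.66 with an unadjusted p of 0.465 without it. The adaptor Shc1 differed from control by a log2 fold change of 0.46 ± 0.37 (SE). Fgf2, Fgf3, Fgf8, Fgf20, Fgf22 and Frs3 had 0 counts in all libraries.

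Of 15 genes from RAS to ERK, 14 were tested, 9 with a higher and 5 with a lower fitted level and a median log2 fold change of 0.1. Map2k1, which encodes MEK1, differed from control by a log2 fold change of -0.67 ± 0.42 (SE). Mapk3, which encodes an ERK kinase, had a value of 0.12 ± 0.5 (SE) on the same scale, with overlapping groups and a sign that turned when a library was left out. Nras (lower) and Araf (higher), named here after their values were seen, gave groups without overlap, at log2 fold changes of -0.34 and 0.45. Over all genes tested, groups did not overlap for 7.44%.

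Of 18 other ETS factors, 15 were tested, 9 with a higher and 6 with a lower fitted level and a median log2 fold change of 0.04, and the groups overlapped for all 15. Ets2 stood at 72.7 ± 5.77 CPM in control and 78.6 ± 7.06 CPM in AMD3100-treated eSMGs (SD, n = 3 each), and Erf, an ETS repressor regulated by ERK, at 122 ± 58.0 and 109 ± 74.8 CPM. Etv3 and Ets1 had the lowest unadjusted p of the list, 0.192 and 0.265, at log2 fold changes of 1.18 and 0.49, and Etv3 was at -0.04 without AMD3100 replicate 2. Elf1 and the epithelial factor Ehf passed p of 0.05 and a fold of 1.5 with the replicate block and not without it. With the block, 4.39% of all genes tested did so. Their block log2 fold changes were 0.59 and 0.72, with unadjusted p of 0.0493 and 0.0396 and adjusted p of 0.746 and 0.727 in edgeR.

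**Figure D4:**
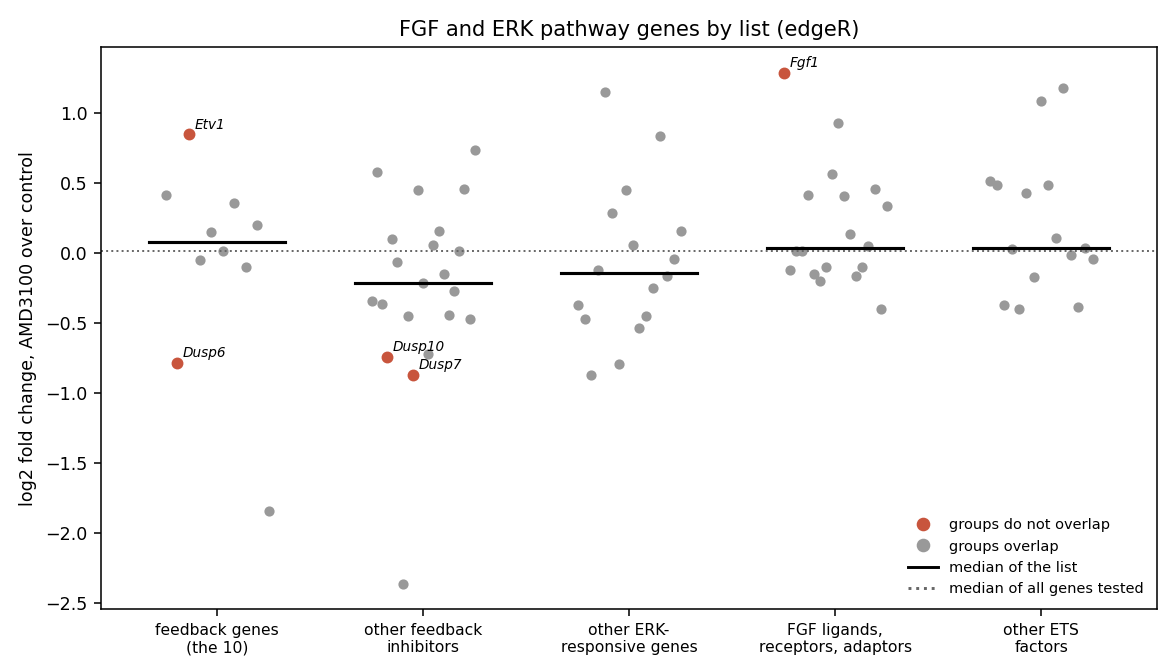
Log2 fold change of each tested gene of the 10 feedback genes and 4 further lists on the y axis, with black bars for list medians, a dotted line for the median of all 13610 genes tested, and red, named points for genes whose groups did not overlap. List medians lie between -0.21 and 0.08, and Dusp6, Dusp7 and Dusp10 are the named points below 0.

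The receptor blocked by AMD3100 and its ligand were read beside these genes. Cxcr4 stood at 28.9, 10.3 and 30.3 CPM in control and at 17.7, 15.0 and 16.2 CPM in AMD3100-treated eSMGs, and the groups overlapped through control replicate 2. Its log2 fold change was -0.5 ± 0.44 (SE) with an unadjusted p of 0.284, and it was -0.26 ± 0.5 (SE) without both libraries numbered 3. Cxcl12 stood at 115, 107 and 175 CPM in control and at 98.1, 123 and 79.9 CPM in AMD3100-treated eSMGs, with a log2 fold change of -0.39 ± 0.32 (SE) and an unadjusted p of 0.249. This difference was -0.01 without both libraries numbered 3, with an unadjusted p of 0.971.

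Markers of the tissue compartments were set beside Dusp6 and Etv1. Of the 15 epithelial markers, 10 had a higher and 5 a lower fitted level in AMD3100-treated eSMGs, with a median log2 fold change of 0.2, and their sum was 2420, 2440 and 1610 CPM in control and 2880, 2560 and 3620 CPM in AMD3100-treated eSMGs. The groups did not overlap in this sum, but they overlapped both in Krt15 alone and in the sum of the other 14 markers. Krt15 stood at 1040, 1010 and 888 CPM in control and at 1370, 1020 and 2470 CPM in AMD3100-treated eSMGs. The sums of the other 14 were 1380, 1430 and 717 CPM in control and 1520, 1550 and 1150 CPM in AMD3100-treated eSMGs. Within each number, however, the sum of the other 14 was higher in the treated library. Of the 15, 7 were higher and 8 lower without both libraries numbered 3, with a median of -0.02. Of the 12 mesenchymal markers, 4 had a higher and 8 a lower fitted level, with a median of -0.13, and of -0.06 without both libraries numbered 3. None of the epithelial and mesenchymal markers passed an unadjusted p of 0.05 with a fold over 1.5. With the replicate block Krt15 (higher) and Twist1 (lower) did, beside 4.39% of all genes tested. Groups did not overlap for 3 of the epithelial and mesenchymal markers, beside 7.44% of all genes tested. Named here after their values were seen, they were Cdh1 and Cldn4 (both epithelial and higher) and Osr1 (mesenchymal and lower). Of the other lists, 1 of 6 endothelial, 0 of 7 erythroid, 4 of 7 ganglion, 4 of 7 macrophage and 6 of 8 muscle markers had a higher fitted level, with median log2 fold changes of -0.62, -0.54, 0.01, 0.02 and 0.42. The muscle markers turned with the pairing, as their median was -0.18 with the replicate block, where 3 of the 8 were higher and Myog and Myod1 were lower past an unadjusted p of 0.05, at 0.00442 and 0.0312. The medians of these lists without both libraries numbered 3 were -0.3, -0.86, -0.18, 0.14 and -0.64, so those of ganglion and muscle markers changed sign. The part of tissue make-up in the Dusp6 and Etv1 values was not tested.

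Among the 3 genes with the profile most like the mean of the 10 feedback genes across the 6 libraries were Mat2a and Pbrm1. Their Euclidean distances from that mean were 0.174 and 0.175 in centred log2 CPM. Both shared with the mean a low value in AMD3100 replicate 3, at -0.47 and -0.48 against -0.53 for the mean of the 10 genes. As both genes were chosen for their nearness to this mean, the shared low value follows from the choice. The mean includes Spry4 and Dusp4, which had 7 and 1 counts in this library. Not all 10 genes were low there, as Spred2 was at its highest of the 6 libraries, at 16.8 CPM.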

How the data were processed

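Read counts per gene symbol, not normalized, were deposited by the authors for 3 control and 3 AMD3100 libraries. Submitters' processing notes name mm10, Bowtie2 and edgeR, without versions. The annotation and the use of strand in counting are not given in the sources used here. Each file held 23282 lines, and 22 exact repeats were left out. Counts were filtered with filterByExpr, scaled by TMM and fitted in edgeR 4.0.16 (R 4.3.3) with condition as the only term, glmQLFTest and Benjamini-Hochberg adjustment. CPM are counts per 1000000 of the TMM-scaled total. Quantile normalization, which the study's methods name, was an alternative with limma 3.58.1, as were DESeq2 1.42.0, upper quartile scaling, filters on low counts, the replicate block, Rn45s left out and libraries left out.

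Total counts per library ranged from 9051595 to 14393031, and Rn45s, the ribosomal RNA precursor, took 16.2 to 32.5% of them. Intervals and the floor of 3 counts cover counting error only, since PCR copies were not marked by molecular identifiers. Labels of both groups share replicate numbers, and deviations from the group means correlated by 0.185, 0.171 and 0.584 within numbers 1, 2 and 3, so the block was used as a paired analysis, although libraries numbered 1 and 2 also correlated across numbers, by 0.198 and 0.146. Named genes were the 10 feedback genes, Cxcr4, Cxcl12, genes of each list fixed for their role and the 2 of each list with the lowest unadjusted p. Some genes that this rule names are not reported here. Members, lists and tests were chosen with earlier results of these data known. Symbols were matched to RefSeq on GRCm38.p6 for positions and promoters.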

Additional observations from a re-analysis of the deposited data

How the results depend on the processing

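In edgeR without the block, 0 genes had an adjusted p under 0.05 and 228 an unadjusted p under 0.05. With the replicate block, 3 passed adjustment and 598 passed an unadjusted p of 0.05 with a fold over 1.5, and with DESeq2 5 passed adjustment. Without both libraries numbered 3 the second count was 613 of 13948 genes tested. Leaving out each library in turn gave 163 to 547 (451 without AMD3100 replicate 3, 547 without control replicate 3) and 0 after adjustment. Of the 10 feedback genes, 2 passed the unadjusted rule with DESeq2, with no filter, with the replicate block and without both libraries numbered 3, and 0 to 1 when a library was left out. Over all genes that rule called 325 of 13610 with DESeq2 and 300 of 18307 with no filter. Dusp6 lay between -1.04 and -0.58 and passed an unadjusted p of 0.05 in 9 of 14 alternatives. Spry4 lay between -2.34 and -0.77 and did so in 5 of 13. Etv1 lay between 0.72 and 1.04 and did so in 0 of 14. The block changed no call by adjusted p among the 10 genes.

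Directions of small differences turned when a library was left out, with log2 fold changes of -0.57 to 0.11 for Spry1, -0.24 to 0.25 for Spred1, -0.16 to 0.11 for Etv4 and -0.17 to 1.16 for Dusp4. The same held for Egr1 (-1.46 to 0.11), Erf (-0.9 to 0.27), Etv3 (-0.04 to 1.92), Fgf10 (-0.35 to 0.17), Fgfr2 (-0.43 to 0.1), Il17rd (-0.38 to 0.07), Mapk3 (-0.55 to 0.62) and Phlda1 (-0.47 to 0.22). Without both libraries numbered 3, Spred1 was at -0.05, Fgfr1 at 0.01 and Mapk3 at -0.05. The cause of these turns was not tested. Spry4 and Dusp4 could not be fitted with a minimum of 10 counts in every library. Of the 10 feedback genes, Dusp4 had the largest counting error in control, 30.6%, beside an observed coefficient of variation of 92.5%.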
